A study of Rattus norvegicus with 6 samples.

Results

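Copper uptake and handling was followed in the rat jejunum through 8 genes: the membrane transporters Slc31a1 and Slc31a2, the copper-pumping ATPases Atp7a and Atp7b, the copper chaperones Atox1, Ccs and Cox17, and the copper enzyme Sod1. All array probes, control spots aside, whose transcript accession belongs to one of these genes were taken, which gave 9 probes of 41012 on the array and 8 genes of 13837 that carry a RefSeq symbol. The set was selected on the comparison described here, because Slc31a1 stood far higher on the arrays labelled S3d, so the levels of the 9 probes in the 2 groups are given as a description, with no test. RNA came from the jejunum, the middle stretch of the small intestine, of male Sprague-Dawley rats aged 6 weeks and weighing 200 ± 20 g, kept at 25°C and 60% humidity. Control rats did not receive the treatment, and rats of the 3-day stress group (S3d) spent 2 h a day for 3 days on a shaker in warm air (35°C, 0.1 × g). Each group had 3 samples, each of them total RNA mixed from 3 rats, and each sample was read on 1 one-colour Agilent array. The labels give 10 rats per group and the study's methods fewer than 3 separate pools of 3 would need, so whether pools share rats is unknown. No genetic change or drug treatment is named for either group, all rats were bled under ether, and the tissue was minced jejunum with its mixture of cells, so that fewer cells of a type and less RNA per cell cannot be told apart.

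Copper is taken into enterocytes by the high-affinity transporter encoded by Slc31a1, after reduction at the cell surface, and leaves them toward the blood through the ATPase Atp7a, the protein lost in Menkes disease. Inside the cell no copper is left free: Atox1 carries it to the ATPases, Ccs inserts it into the superoxide dismutase Sod1, Cox17 hands it to the mitochondrial proteins that load cytochrome c oxidase, and metallothioneins bind what is in excess. Atp7b, the protein lost in Wilson disease, does the exporting in hepatocytes, and Slc31a2 is an intracellular relative of Slc31a1 that influences how copper is mobilised from vesicles.

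Levels are given as scaled log2 values, the scanner's processed signal on the log2 scale with the array's own 75th percentile subtracted, so that 0 is a signal equal to that percentile. The arrays differed as wholes. The 75th percentile was 414.4 to 430.1 signal units on the control arrays and 1456.1 to 1565.7 on the S3d arrays, whereas the spike-in controls were dimmer on the S3d arrays (medians 5645 to 6979, against 9152 to 10804). The 2 groups lay on 2 slides of 3 arrays each, and slide and group cannot be told apart. The group names here are those of the scanner files. The deposited normalized table carries them the other way round: each of its columns matched the scanner file of the same number in the other group (Spearman's rho of 0.99997 to 0.99999 across probes, against 0.941 to 0.948 for the file of its own label), so the directions given here, by the scanner labels, oppose those of the study's table and of its reported array and RT-PCR results, and hold only as far as the scanner labels do. Exceptions that keep their sign in the table are Slc31a2, Ccs, both Sod1 probes and, of the other genes named below, Slc25a3. One array stood apart. S3d array 1 had pancreatic transcripts at high level, with Amy2a3 (amylase) at a scaled log2 value of 8.01 against -4.80 and -4.45 on the other S3d arrays and -7.84 to -6.56 on the control arrays.

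The promoters of 3 of the genes are shown because their probes frame the account: Slc31a1 had the widest difference upward, Cox17 the widest downward, and Sod1 held the matches to the heat shock element. They are RefSeq sequences of build GRCr8, 5′ to 3′ on the strand of the gene, and capitals mark the matches to the motifs described after them. The Slc31a1 stretch (chr5:80830623-80830839, + strand, 217 bases) ends just before the start site and begins just past the near edge of the facing gene Fkbp15. Another annotated start of Slc31a1 lies 266 bases farther upstream. The Cox17 stretch (chr11:75912037-75912269, - strand, 233 bases) and the Sod1 stretch (chr11:42942573-42942741, + strand, 169 bases) lie just outside the spans of their genes.
Slc31a1: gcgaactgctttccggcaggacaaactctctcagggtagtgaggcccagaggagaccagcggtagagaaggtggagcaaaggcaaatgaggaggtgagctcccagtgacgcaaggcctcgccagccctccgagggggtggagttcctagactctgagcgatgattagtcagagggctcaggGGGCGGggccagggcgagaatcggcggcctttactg
Cox17: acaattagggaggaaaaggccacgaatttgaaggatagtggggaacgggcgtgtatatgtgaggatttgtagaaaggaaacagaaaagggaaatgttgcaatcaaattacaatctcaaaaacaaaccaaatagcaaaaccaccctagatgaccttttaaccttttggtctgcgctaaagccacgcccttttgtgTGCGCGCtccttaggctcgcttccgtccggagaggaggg
Sod1: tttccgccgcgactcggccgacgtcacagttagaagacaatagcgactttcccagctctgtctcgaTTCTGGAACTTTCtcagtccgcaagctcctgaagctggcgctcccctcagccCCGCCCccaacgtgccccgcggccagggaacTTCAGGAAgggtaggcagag

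All 8 genes had an entry in the promoter table, but the Atp7a entry started 43885 bases inside the annotated gene and was not read as a promoter. Motifs were searched on both strands in the 250 bases before the start of the remaining 7 genes. The core of the metal response element, bound by the zinc-sensing factor Mtf1 and spelled TGCACNC or TGCGCNC, was found in 4 of the 7 (Slc31a2, Atp7b, Ccs and Cox17) and in 20.6% of all 33469 promoters of that length. The letters GGGCGG, the core of a GC box bound by Sp1, were found in 4 of the 7 (Slc31a1, Atox1, Ccs and Sod1) and in 30.5% of all promoters. The heat shock element pair, spelled GAANNTTC or TTCNNGAA, was found in Sod1 alone of the 7, in 3 places of which 2 overlap, and in 13.5% of all promoters. Slc31a1 and its neighbour Fkbp15 are read in opposite directions from start sites 275 bases apart, and Fkbp15 is the 1 gene annotated between Slc31a2 and Slc31a1 on chromosome 5. A match is a description of letters only, and none of these letters was tied to the levels below.

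Slc31a1, the copper importer of the cell surface, had the widest difference of the 8 genes. Its probe A_43_P13226 (transcript NM_133600) read -2.79, -2.68 and -2.89 on the control arrays and 1.42, 1.80 and 1.67 on the S3d arrays, in scaled log2 values. All 3 S3d arrays were far above all 3 control arrays. The group means were -2.79 ± 0.10 and 1.63 ± 0.20 (SD, n = 3 each), a difference of 4.42 log2 units (SE 0.12), or 21.4-fold higher on the arrays labelled S3d. Before any scaling the processed signal was 59.8, 66.4 and 58.1 units on the control arrays and 3884, 5403 and 4983 on the S3d arrays. The control spots were dim but above their surroundings, with median pixels of 87.5 to 91 against local backgrounds of 34 to 36. In the deposited table the same probe averaged 11.33 ± 0.21 in the columns named control and 6.95 ± 0.10 in those named S3d (log2, n = 3 each), a difference of about the same size with the sign turned. Among the 31367 probes tested the difference ranked 97 from the top.

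Slc31a2, the second member of the same transporter family and a close neighbour on the chromosome, lay at one level in both groups on the main scale. Its probe A_44_P222726 (NM_001033693) read -3.51, -3.72 and -3.47 on the control arrays and -3.42, -3.64 and -3.59 on the S3d arrays in scaled log2 values. The arrays of the 2 groups overlapped, with means of -3.57 ± 0.14 and -3.55 ± 0.12 (SD, n = 3 each) and a difference of 0.02 log2 units (SE 0.10). The sign of so small a difference turned with single arrays, to -0.06 without control array 2 and to -0.05 without S3d array 1.

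Atp7a, the ATPase that moves copper across the basolateral side of the enterocyte, was the other gene of the set that stood higher on the S3d arrays. Its probe A_44_P520265 (NM_052803) read -2.01, -2.68 and -2.20 on the control arrays and -0.29, 0.04 and 0.25 on the S3d arrays in scaled log2 values. The groups did not overlap, although both were more spread than for the other genes (control SD 0.34 and S3d SD 0.27, n = 3 each). The difference was 2.30 log2 units (SE 0.21), a 4.92-fold higher level, and was 2.44 without S3d array 1. Atp7b, the liver-type copper ATPase, was different. Its probe A_44_P306339 (NM_012511) read -1.92, -1.59 and -1.52 on the control arrays and -2.04, -1.97 and -1.81 on the S3d arrays, which overlap, with a difference of -0.26 log2 units (SE 0.13). Uptake and export each held 1 gene with a wide upward difference and 1 gene whose groups overlapped.

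**Figure D1:**
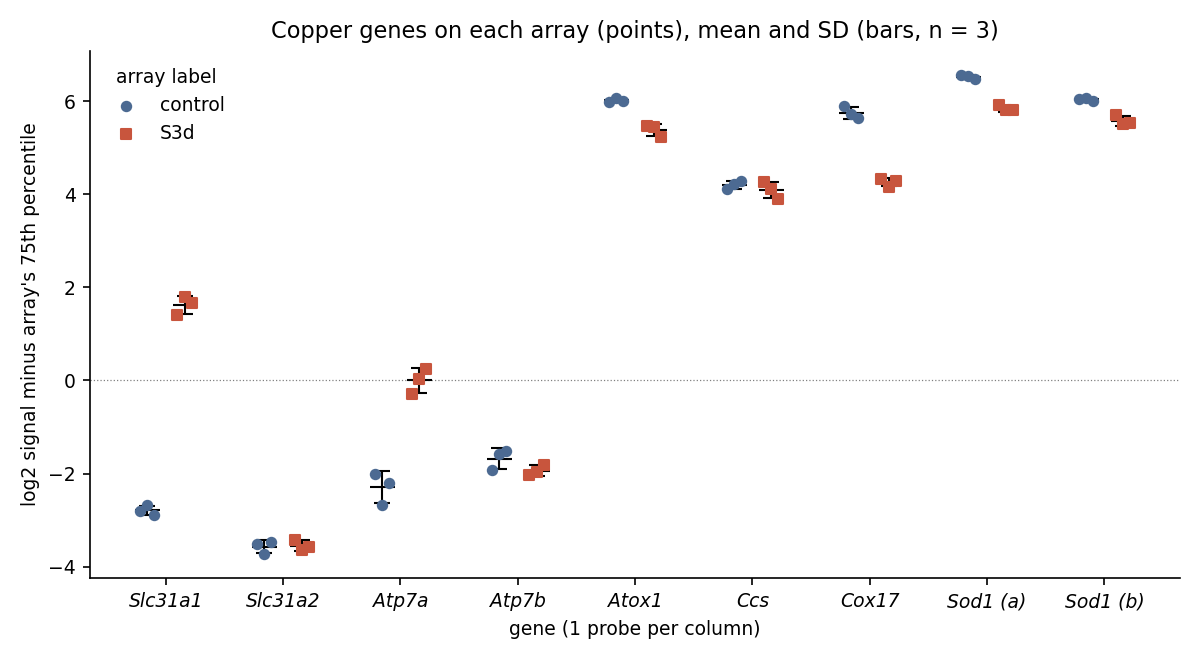
Scaled log2 value (75th percentile of each array at 0, vertical axis) of the 9 probes of the 8 copper genes (horizontal axis; Sod1 (a) is A_43_P14620 and Sod1 (b) is A_44_P461197) on 3 arrays labelled control (circles) and 3 labelled S3d (squares), with the group mean and SD as bars. Slc31a1 moves from about -2.79 to 1.63 and Atp7a also lies higher on the S3d arrays, whereas Cox17, Atox1 and both Sod1 probes lie lower and the other probes overlap; heights of different probes are not comparable with each other.

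The chaperones stood lower or overlapped. Cox17, which carries copper to the assembly of cytochrome c oxidase, read 5.89, 5.72 and 5.63 on the control arrays and 4.33, 4.16 and 4.29 on the S3d arrays in scaled log2 values (probe A_43_P12844, NM_053540). All S3d arrays were below all control arrays, by 1.49 log2 units between the means (difference -1.49, SE 0.09), a 2.80-fold lower scaled level. The signal of this probe before scaling was 1.28-fold higher on the S3d arrays, the smallest ratio of the 9 probes, where that of Slc31a1 was 76.8-fold higher.

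Atox1, which delivers copper to the ATPases, read 5.98, 6.06 and 6.01 on the control arrays and 5.46, 5.44 and 5.23 on the S3d arrays (A_42_P690274, NM_053359), a difference of -0.64 log2 units (SE 0.08) without overlap. Ccs, the chaperone of Sod1, read 4.11, 4.22 and 4.28 against 4.25, 4.12 and 3.90 (A_42_P762618, NM_053425), with overlap and a difference of -0.11 log2 units (SE 0.11). On this scale Cox17 differed the most of the 3 chaperones and Ccs the least, an order that depends on the scaling: with quantile normalization Atox1 differed the least (-0.08), and with no scaling Cox17 did (0.36, against 1.21 for Atox1 and 1.73 for Ccs).

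Sod1, the cytosolic copper-zinc superoxide dismutase (NM_017050), had 2 probes. A_43_P14620 read 6.56, 6.54 and 6.48 on the control arrays and 5.91, 5.80 and 5.80 on the S3d arrays in scaled log2 values, a difference of -0.69 (SE 0.07). A_44_P461197 read 6.04, 6.07 and 6.01 against 5.69, 5.51 and 5.52, a difference of -0.46 (SE 0.07). Both probes were lower on all S3d arrays than on all control arrays, and only the first passed a fold change of 1.5.

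Across the 9 probes 3 were higher and 6 lower on the S3d arrays, with a median difference of -0.26 log2 units against 0.08 over all 31367 probes tested. All 9 probes were well above background on all 6 arrays. Under the rule used for the whole array, limma's adjusted p below 0.05 together with a 1.5-fold or larger difference, 52.4% of all probes tested counted as changed, and so did 5 of the 9 (Slc31a1, Atp7a, Atox1, Cox17 and the first Sod1 probe). Of all probes 29.2% were changed and higher, as were 2 of the 9, and 23.3% were changed and lower, as were 3 of the 9. The groups did not overlap for 78.9% of all probes and for 6 of the 9. Since the genes were selected on this comparison, nothing is read from these counts.

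The scaling decided the direction of the smaller differences. With median centring 44.2% of the changed probes were higher, against 55.6% under the 75th percentile. That share was 31.1% after normexp background correction, 98.8% with no scaling and 99.7% with spike-in scaling. The median difference of all probes was -0.10, -0.68, 1.93 and 2.58 log2 units under these 4 settings. Slc31a1 and Atp7a stood above the median of all probes under each of them, and with the 75th percentile and quantile normalization. The 75th percentile, median centring, no scaling and spike-in scaling differ only by a shift of all probes of an array alike. A probe's distance from the median is therefore fixed among these, and only quantile normalization and normexp could have changed it. The difference of Slc31a1 was 2.94 log2 units under normexp and 4.23 to 6.91 under the other 5 settings. Cox17 stood below the median of all probes under the same 6 settings, at -0.99 with quantile normalization and -0.93 under normexp, and at 0.36 with no scaling and 1.01 with spike-in scaling. The other probes did not keep one sign: with quantile normalization Atox1 differed by -0.08, the Sod1 probes by 0.0036 and 0.11, and Ccs by 0.30. Slc31a2 differed by -1.27 under normexp, 1.86 with no scaling and 2.51 with spike-in scaling.

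**Figure D2:**
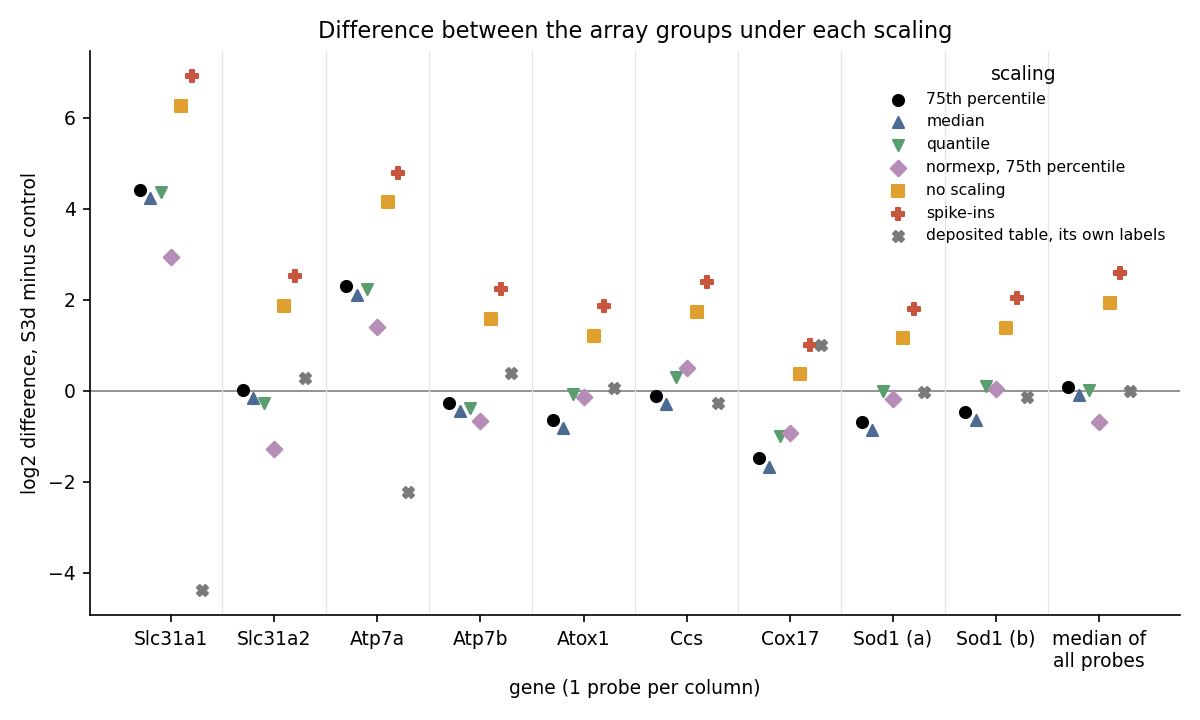
Difference between the group means (S3d minus control, log2 units, vertical axis) of each probe of the copper genes and, at the right, the median of all tested probes, under 6 ways of scaling the scanner signals and in the deposited table read by its own labels (symbols). Slc31a1 lies at 4.42 with the 75th percentile, between 2.94 and 6.91 in the other scaled scanner values and at -4.38 in the deposited table, while Atox1, Ccs and the Sod1 probes lie on both sides of 0.

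The normexp values rest partly on a single array. After that correction the control arrays put Slc31a1 at -2.02, -2.03 and -0.33, and the estimated signal of control array 3 was 1005 units where the other control arrays had 115.6 and 117.8, and its 75th percentile was 1265 against 469.9 and 480.8. The processed signal of the same spot on control array 3 was 58.1 units, and its median pixel was 87.5 against a local background of 34. The normexp estimate on that array thus did not follow the measured signal, and every result given after normexp carries this limit.

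The difference between the groups also ran with brightness over the array as a whole. With the probes divided into quartiles by their control level, the dimmest had a median difference of 0.92 log2 units, and the brightest one of -0.36. Slc31a1, Slc31a2 and Atp7a fell in the second quartile (median difference 0.14, quartiles -0.47 and 0.72), Atp7b in the third (median -0.05), and the chaperones and Sod1 in the brightest (quartiles -0.87 and 0.11). Slc31a1 and Atp7a lay above and Cox17 below the middle part of the probes of their own quartile, whereas the differences of Atox1, Ccs and the Sod1 probes lay between those quartiles, as did those of Slc31a2 and Atp7b in theirs. The part of brightness in these differences was not tested.

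**Figure D3:**
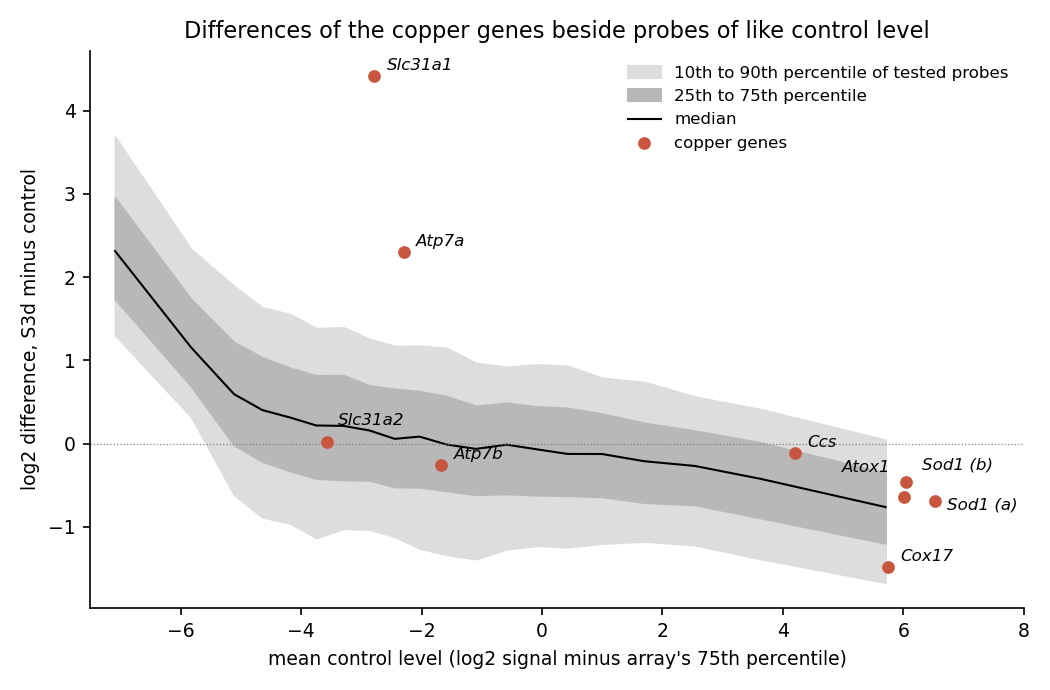
Difference between the groups (S3d minus control, log2 units) against the mean control level (scaled log2 value) for the probes of the copper genes (points), over the median, the quartiles and 2 wider percentiles (named in the legend) of all tested probes in 20 bins of equal number by control level (line and bands). Slc31a1 (4.42) and Atp7a (2.30) lie above the bands at their level, Cox17 (-1.49) lies near the lower edge, and the other probes lie within or beside the bands.

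The pattern of Slc31a1 over the 6 arrays was not its own. Among 14633 other probes with a gene symbol (11430 genes), the 5 genes whose deviations from their own mean were nearest to those of Slc31a1 were Oxnad1, Ptpn12, Prpf4b, Ndufc2 and Kdm4c, with root mean square differences of 0.15, 0.18, 0.20, 0.21 and 0.23 log2 units. Their differences between the groups were 4.49, 4.29, 4.69, 4.02 and 4.24 log2 units, close to the 4.42 of Slc31a1. These genes were picked as the nearest over the same 6 arrays, so differences close to that of Slc31a1 follow from the pick. This is a description with no test.

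Other genes of copper handling, listed by their role but with earlier results of these data known, were tested with limma, with p adjusted over all 31367 probes. Of 63 genes listed, 52 had a probe and 51 were tested: 7 rose, 15 fell and 29 did not pass the test on the arrays labelled S3d, so 43.1% changed against 52.4% of all probes. The median difference over the 51 genes was -0.10 log2 units. After normexp 5 of the 51 changed, and with no scaling 47. Of the named genes that fell, Mt1, Mt2A and Steap1 alone stayed below 0 with no scaling and none did with spike-in scaling. All of them stayed below the median of all probes in both, which was fixed by the main fit, since these settings shift all probes of an array alike.

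In metal response and storage 3 of 6 tested genes fell and 1 rose on their brightest probes. Sp1 did not pass on its brightest probe, while its other probes passed in opposite directions (-0.74 and 1.26). Mt1, one of the metallothioneins that bind surplus copper and zinc, read 6.21, 6.54 and 7.04 on the control arrays and 4.89, 4.79 and 4.50 on the S3d arrays, a difference of -1.87 log2 units (SE 0.23, adjusted p = 0.00052 in limma). Mt2A, its close relative, read 3.43, 3.77 and 4.33 against 2.05, 1.86 and 1.72, a difference of -1.97 (SE 0.24, adjusted p = 5e-04). Neither gene's groups overlapped. Mt3 differed by -0.48 (adjusted p = 0.028), short of a fold change of 1.5, and its adjusted p was 0.066 with the replicate number as a block. The sequences of metallothioneins resemble each other, and how far their probes read each other's RNA was not tested. The remaining changed genes of the 6 tested in this group were Mtf1, the transcription factor that switches metallothioneins on, which lies outside the rule for named genes and was picked after its value was seen (difference -1.74, SE 0.10, adjusted p = 3.4e-05), and Cutc, a copper-binding protein of the cytosol, which rose by 1.14 (SE 0.08, adjusted p = 5.7e-05). Without scaling Mt1 and Mt2A differed by -0.03 and -0.12 and with spike-in scaling by 0.62 and 0.53, where the medians of all probes were 1.93 and 2.58. Under normexp the adjusted p of Mt1 was 0.07.

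At the cell surface, metal reductases prepare copper and iron for uptake. Of the 6 genes tested in this group with the divalent metal transporter, 2 rose and 1 fell on their brightest probes. Steap2 and Steap4 did not pass on theirs. Their other probes did, at 1.78 (adjusted p = 0.01) for Steap2 and -1.61 (adjusted p = 0.00065) for Steap4. Steap3, a reductase of endosomes, rose by 0.63 log2 units (SE 0.13, adjusted p = 0.0055), but fell short of a fold change of 1.5 with quantile normalization (0.49), with median centring (0.45) and without control array 1 (0.58) or S3d array 1 (0.51), and was -0.32 after normexp. Steap1 fell by 2.40 (SE 0.23, adjusted p = 0.00018), with values of -2.93, -2.92 and -3.45 on the control arrays and -5.91, -5.30 and -5.30 on the S3d arrays, of which 2 were well above background. Slc11a2, the divalent metal transporter that takes up iron, did not pass the test (difference 0.19, SE 0.22, adjusted p = 0.46).

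Delivery of copper to cytochrome c oxidase, the pathway that Cox17 feeds, gave 1 gene that rose and 2 that fell of 8 tested. Sco1, which receives copper from Cox17 and places it in the oxidase, read 0.11, 0.29 and 0.03 on the control arrays and 1.55, 1.65 and 1.65 on the S3d arrays. Its difference of 1.47 log2 units (SE 0.09, adjusted p = 3.3e-05) ran opposite to that of Cox17. Slc25a3, the mitochondrial carrier of phosphate and copper, fell by 0.87 (SE 0.06, adjusted p = 6.2e-05), but differed by 0.21 the other way with quantile normalization and by -0.19 after normexp (adjusted p = 0.76). Cox11, which loads another copper site of the oxidase, differed by 0.35 (adjusted p = 0.0086) on its brighter probe, whereas the other probe gave -0.21 (adjusted p = 0.037), both short of a fold change of 1.5.

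Of 6 genes known to act on the trafficking or turnover of the copper ATPases, 2 fell and none rose. Commd1, which takes part in the recycling of Atp7a and Atp7b, read 3.55, 3.54 and 3.56 on the control arrays and 2.74, 2.67 and 2.70 on the S3d arrays, a difference of -0.85 log2 units (SE 0.06, adjusted p = 5.2e-05). Glrx, a glutaredoxin, fell by 0.96 (SE 0.08, adjusted p = 0.00011). Both calls were lost with quantile normalization, at differences of -0.56 for Commd1 and -0.38 for Glrx, and after normexp, at -0.22 (adjusted p = 0.67) and -0.34 (adjusted p = 0.58). Atp7a itself stood higher on the same arrays.

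Among 14 copper enzymes and copper-binding proteins tested, 2 rose and 5 fell. Heph, the copper-dependent ferroxidase that works beside iron export in the enterocyte, fell by 0.71 log2 units (SE 0.07, adjusted p = 0.00021), a call that was lost with quantile normalization (-0.234) and after normexp (-0.225, adjusted p = 0.71). Loxl3, a lysyl oxidase-like enzyme, rose by 1.62 (SE 0.12, adjusted p = 7.7e-05) and was -0.79 after normexp (adjusted p = 0.36), and Loxl4 fell by 1.10 (SE 0.29, adjusted p = 0.015), a call that was lost without control array 1 (difference -0.99, adjusted p = 0.05) and after normexp (-1.97, adjusted p = 0.093). The 3 probes of Cp, the copper ferroxidase of the blood, disagreed. The one brightest over all arrays differed by 0.21 (SE 0.11, adjusted p = 0.14), whereas the second differed by 1.76 (SE 0.12, adjusted p = 4.8e-05) and the third by 3.63 (SE 0.16, adjusted p = 1.6e-05), the latter from -5.53, -5.31 and -5.25 on the control arrays to -2.04, -1.55 and -1.60 on the S3d arrays. Without S3d array 1 the first Cp probe had an adjusted p of 0.0087 with a difference of 0.32, short of a fold change of 1.5.

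Excess copper binds lipoylated enzymes of the mitochondrion. The group of genes for lipoylation, for these enzymes and for their partner subunits gave 1 gene that rose and 2 that fell of 11 tested, on their brightest probes. Lias and Gcsh did not pass on theirs. Their other probes rose, by 2.06 (adjusted p = 0.0013) for Lias and 0.64 (adjusted p = 0.00025) for Gcsh. Pdhb, a subunit of pyruvate dehydrogenase that carries no lipoyl group, rose by 0.68 log2 units (SE 0.09, adjusted p = 0.00063), short of a fold change of 1.5 with median centring (0.49). After normexp its difference was wider, at 1.23, with an adjusted p of 0.095. Dlst, the lipoylated subunit of 2-oxoglutarate dehydrogenase, fell by 0.98 (SE 0.06, adjusted p = 4.3e-05), a call that was lost with quantile normalization (-0.34) and after normexp (-0.37, adjusted p = 0.53). The other gene that fell was Lipt2, a lipoyl transferase, named after its value was seen (-0.88, SE 0.08, adjusted p = 0.00013).

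**Figure D4:**
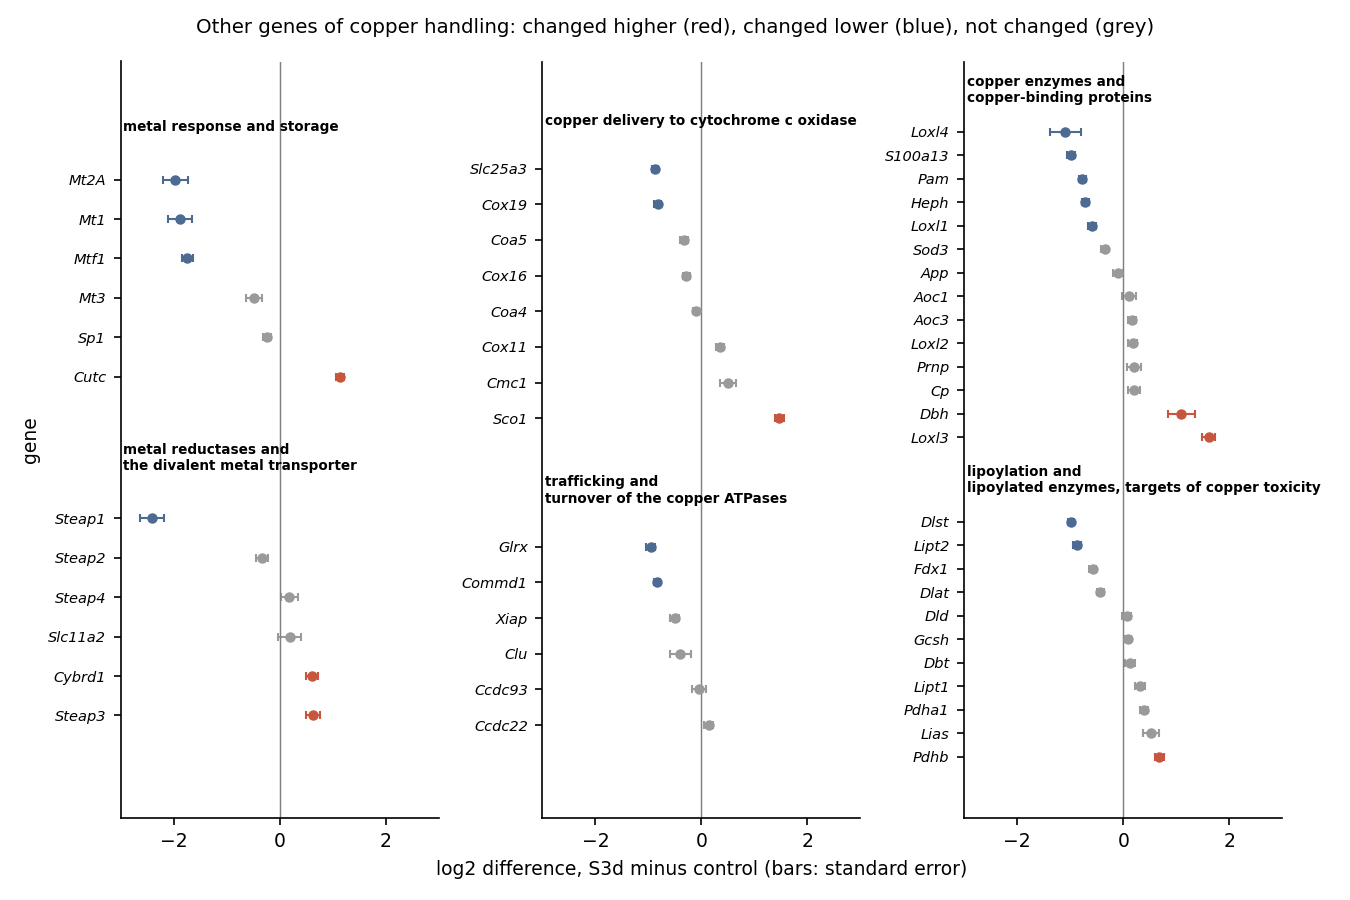
Difference between the groups (S3d minus control, log2 units, with standard errors) of the 51 tested genes of copper handling outside the 8, each on its brightest probe, in 6 role groups; red and blue mark genes that passed the test higher or lower, grey the rest. Mt1, Mt2A, Mtf1 and Steap1 lie farthest to the left, and Sco1, Loxl3 and Cutc farthest to the right, with Dbh at 1.10.

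Markers of the labelled tissue were present at high level. The counts that follow stand beside 29.2% of all probes that rose and 23.3% that fell, and bright probes were lower over the array as a whole, as given above. Of 11 enterocyte markers tested 6 fell and 1 rose, and their summed signal, in multiples of the 75th percentile of the array, was 3637 to 4049 on the control arrays and 1643 to 1710 on the S3d arrays. The goblet and Paneth cell list fell in 4 of 6 (sums 1648 to 1724 against 627 to 639) and the leukocyte list in 5 of 10, with 1 that rose (187.0 to 204.3 against 123.1 to 133.2). Smooth muscle markers gave 2 that rose and 4 that fell of 9 (144.0 to 171.5 against 141.4 to 162.1). Of 3 erythrocyte markers 2 fell (3.02 to 3.46 against 0.51 to 0.80). The liver and pancreas list, where 1 of 4 fell, summed to 0.35 to 0.65 on the control arrays and 0.57 to 780.0 on the S3d arrays. The part of these cell types in the levels of the copper genes was not tested. Without S3d array 1, the one with pancreatic transcripts, Slc31a1 differed by 4.52 log2 units and Cox17 by -1.52, and 23 of the other copper genes changed instead of 22.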

How the data were processed

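Total RNA of rat jejunum, mixed from 3 rats per sample, was labelled with Cy3 and read on one-colour Agilent arrays, 3 labelled control and 3 labelled S3d. The authors deposited scanner files (Agilent Feature Extraction 10.7.3.1 per the file headers) with spot intensity after the scanner's background subtraction, and a normalized table of log2 values whose normalization is not given in the sources used here. Its scale is log2 and its group labels are exchanged against the scanner files. The files used here do not settle which naming is right. The directions the study reports follow the table, and it reports RT-PCR, a measurement apart from the array labels, in the same directions. The scanner labels were used, and every direction given depends on them.

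From each array's log2 processed signal the 75th percentile was subtracted, flagged outliers were dropped and spots of one probe averaged. Probes were named through the RefSeq accession in the files (17512 of 41012 matched a symbol). A probe was tested (31367 in all) if every array of at least 1 group had it well above background, by a fit in R 4.3.3 with limma 3.58.1 and Benjamini-Hochberg adjustment, and changed means an adjusted p below 0.05 and at least a 1.5-fold difference. The precision is limited by 3 arrays per group, which pool rats, and p-values measure the spread between these pools. In a test on simulated data 200 of 31137 probes were changed. Of the probes moved by 1 log2 unit 72% were recovered, and 89% of those moved by 2, with 4 false calls. On the arrays themselves 16449 of 31367 probes counted as changed, and slide and group cannot be told apart. How far the recovery and the false calls carry over to these arrays was not tested.

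The 8 genes and all lists were chosen with earlier results of these data known. Outside the 8, the text names every metallothionein, Heph, Cp, Sco1, Sco2, Cox11, Commd1 and Slc11a2 on the array, the changed genes with the largest rise and fall in each role group, and the 5 genes nearest to Slc31a1, each on its probe brightest over all arrays. Sco2 had no matched probe. Alternatives were other scalings, normexp (offset 50, on median spot signals), filters, thresholds, the methods' analysis of variance, the deposited table, the replicate number as a block and each array left out. Promoters were read from RefSeq (GRCr8), whereas the array annotation uses an older build, so array probes are given no coordinates.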

Additional observations from a re-analysis of the deposited data

How the results depend on the processing

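The number of changed probes (16449) rose to 28900 with no scaling between arrays and to 30521 with spike-in scaling, and was 1754 after normexp correction, where control array 3 stood apart from the other control arrays. The changed genes among the other copper genes (22) numbered 47, 49 and 5 under these settings, and 36 with no minimum fold change. The other settings kept both counts within 1.5 times. Of the 9 probes of the 8 genes 3 were higher on the S3d arrays, against 9 with no scaling, 9 with spike-in scaling and 5 with quantile normalization. The difference of Slc31a1 was 4.23 with median centring, 6.26 with no scaling, 6.91 with spike-in scaling and 2.94 after normexp. Its sign turned in the deposited table, whose group labels are exchanged against the scanner files, at -4.38.

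The log2 differences that turned sign in the deposited table, apart from Slc31a1, were -2.24 for Atp7a, 0.38 for Atp7b, 0.054 for Atox1, 1.00 for Cox17, 1.28 for Mt1, 1.74 for Mt2A, 0.66 for Mt3, -0.43 for Slc11a2, -1.52 for Sco1, -0.39 for Cox11, 0.58 for Commd1, -0.047 for Cp, 0.24 for Heph, -1.19 for Cutc, -0.49 for Steap3, 2.88 for Steap1, 0.36 for Glrx, -1.28 for Loxl3, 1.56 for Loxl4, -0.96 for Pdhb and 0.31 for Dlst. With no scaling they were 1.58 for Atp7b, 1.21 for Atox1, 1.73 for Ccs, 0.36 for Cox17, 1.16 for the first Sod1 probe, 1.38 for the second, 1.37 for Mt3, 1.00 for Commd1, 1.13 for Heph, 0.97 for Slc25a3, 0.89 for Glrx, 0.75 for Loxl4 and 0.86 for Dlst. With spike-in scaling they were 2.23 for Atp7b, 1.86 for Atox1, 2.38 for Ccs, 1.01 for Cox17, 1.81 for the first Sod1 probe, 2.03 for the second, 0.62 for Mt1, 0.53 for Mt2A, 2.02 for Mt3, 1.65 for Commd1, 1.78 for Heph, 0.097 for Steap1, 1.62 for Slc25a3, 1.54 for Glrx, 1.40 for Loxl4 and 1.52 for Dlst. With quantile normalization they were -0.27 for Slc31a2, 0.30 for Ccs, 0.0036 for the first Sod1 probe, 0.11 for the second and 0.21 for Slc25a3, with median centring -0.17 for Slc31a2, and after normexp -1.27 for Slc31a2, 0.50 for Ccs, 0.03 for the second Sod1 probe, -0.73 for Cp, -0.32 for Steap3 and -0.79 for Loxl3. Mtf1 also turned, to 1.96 in the deposited table, 0.10 with no scaling and 0.75 with spike-in scaling. In the deposited table the second Cp probe turned to -1.55 and the third to -3.28. Lipt2 and the other Cox11 probe are not listed here.

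Leaving out each array in turn gave 15980 to 16463 changed probes, 2 to 3 of the 9 probes higher, 4.33 to 4.52 for Slc31a1 and 19 to 25 changed other copper genes. Arrays of one number in the 2 groups did not deviate together (correlations of 0.02, 0.02 and -0.05 over probes). No pairing by number was seen, though 3 arrays per group cannot exclude it. With the replicate number as a block 16311 probes and 22 other copper genes changed, the difference of Slc31a1 stayed 4.42, and of the named genes only Mt3 crossed the threshold, at an adjusted p of 0.066. The slide as a block could not be fitted, since no slide holds both groups. Per array 69.1% to 81.5% of spots were well above background.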
